A study of Mus musculus with 12 samples.

Results

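The 32 genes described here encode the folding machinery of the endoplasmic reticulum (ER) and the proteins that sense and relieve ER stress. They were chosen by function, and each is represented by its brightest probe set by mean over 12 arrays. All 32 were above the filter on dim probe sets, among 12671 genes tested. The arrays measured total RNA from mouse cerebellum at 6 weeks of age, on a C57BL/6 background, with 3 arrays in each of 4 groups. Both lines carry a knockin allele of Cacna1a, which encodes the pore of P/Q-type calcium channels and, in spinocerebellar ataxia type 6, has a lengthened glutamine tract near its end. The 118Q knockin mice were homozygous for an allele with 118 glutamine codons (MPI 118Q/118Q), and their controls were wild type littermates. The 11Q knockin mice were homozygous for an allele with 11 glutamine codons (MPI 11Q/11Q), a tract of normal length, and their controls were also wild type littermates. The allele is carried in every cell from conception, and each array holds whole cerebellum. Per the labels, RNA came from RNeasy columns, scored above 5 for integrity in all samples and was biotin-labelled in a single cycle.

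Secretory and membrane proteins enter the ER through the Sec61 channel and are folded there by chaperones, by disulfide isomerases and by a lectin cycle that reads their sugars. Proteins that fail to fold are pulled back into the cytosol, ubiquitinated and degraded. When unfolded protein builds up, the sensors IRE1, PERK and ATF6 act on transcription and translation, and chaperone genes are switched on through short promoter elements. Purkinje cells, the output neurons of the cerebellar cortex, hold an extensive ER that also stores calcium.

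Several chaperone genes carry the ER stress element, ERSE, in their promoters, and these promoters are shown because the genes with the element include those with the largest differences below 0 in 118Q knockin mice. The element was searched as CCAAT, 9 bases of any kind and CCACG on both strands, in windows of 300 bases with 250 before and 50 after the annotated start site (RefSeq, assembly GRCm38.p6). It occurred in 7 of 28 members with a window, or 25%, and in 37 of all 27025 genes with a window, or 0.137%. The 7 were Hspa5, Hsp90b1, Calr, Canx, Pdia6, Syvn1 and Creld2. Atf6, Derl1, Hyou1 and Manf have no entry. The 250 bases before the start site of 5 of these genes are printed 5′ to 3′ on the gene's own strand, with the element in capitals. Where the capitals begin with CGTGG, the element lies on the opposite strand.
Hspa5, chr2:34771840-34772089, plus strand: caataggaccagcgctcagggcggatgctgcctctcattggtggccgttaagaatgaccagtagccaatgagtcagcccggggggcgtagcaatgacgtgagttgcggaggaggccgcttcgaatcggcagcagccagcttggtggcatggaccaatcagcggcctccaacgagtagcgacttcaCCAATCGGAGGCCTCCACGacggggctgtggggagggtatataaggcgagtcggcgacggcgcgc
Hsp90b1, chr10:86705445-86705694, minus strand: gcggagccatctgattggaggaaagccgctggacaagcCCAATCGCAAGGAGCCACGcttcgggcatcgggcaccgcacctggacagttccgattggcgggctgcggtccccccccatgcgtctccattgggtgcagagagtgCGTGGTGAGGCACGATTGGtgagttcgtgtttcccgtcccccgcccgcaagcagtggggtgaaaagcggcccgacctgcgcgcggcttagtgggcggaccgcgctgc
Calr, chr8:84846932-84847181, minus strand: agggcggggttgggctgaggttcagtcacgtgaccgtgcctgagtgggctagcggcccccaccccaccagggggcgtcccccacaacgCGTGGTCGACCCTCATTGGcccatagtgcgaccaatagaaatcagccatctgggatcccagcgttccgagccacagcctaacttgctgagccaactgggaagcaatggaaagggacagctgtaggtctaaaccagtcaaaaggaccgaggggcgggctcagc
Canx, chr11:50325674-50325923, minus strand: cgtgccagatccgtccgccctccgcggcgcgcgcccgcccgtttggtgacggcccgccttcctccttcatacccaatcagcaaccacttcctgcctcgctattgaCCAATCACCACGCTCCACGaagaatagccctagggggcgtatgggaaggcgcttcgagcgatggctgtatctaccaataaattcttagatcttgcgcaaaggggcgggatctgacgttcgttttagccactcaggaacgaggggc
Creld2, chr15:88819396-88819645, plus strand: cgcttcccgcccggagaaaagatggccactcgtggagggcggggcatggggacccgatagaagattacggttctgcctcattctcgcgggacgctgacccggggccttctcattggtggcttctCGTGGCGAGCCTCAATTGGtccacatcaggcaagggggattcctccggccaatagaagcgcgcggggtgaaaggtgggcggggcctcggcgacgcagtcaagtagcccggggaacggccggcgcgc

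Hsp90b1 held 2 matches, at -212 to -194 and -107 to -89, where -1 is the last base before the start site. The match of Hspa5 lies at -65 to -47, that of Canx at -145 to -127, that of Calr at -162 to -144 and that of Creld2 at -126 to -108. Pdia6 held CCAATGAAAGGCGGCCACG at -98 to -80 (chr12:17266491-17266509, plus strand). Syvn1 held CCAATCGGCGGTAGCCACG at -44 to -26 (chr19:6046532-6046550, plus strand). The related element ERSE-II, searched as ATTGG, 1 base of any kind and CCACG on both strands, occurred in Herpud1 as ATTGGGCCACG (chr8:94386377-94386387, plus strand) and in 12 of 27025 genes, or 0.0444%. ERSE-II shares the letters CCACG with ERSE, and no member held both. The element TGACGTGG, bound by XBP1 and ATF6, occurred in Vcp and in 0.714% of genes. The composite element of ATF4 and C/EBP factors, searched as TGATGNAAT, occurred in no member's window and in 1.08% of genes. Each match is a run of letters and shows no binding.

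The first comparison set 118Q knockin mice against their wild type littermates. No member passed an adjusted p below 0.05 (limma, Benjamini-Hochberg over all 12671 genes, two-sided), where 24 genes, or 0.189%, did. At an unadjusted p below 0.05 there were 11 members, or 34.4%, against 18.7% of all genes. Of these, 8 were lower in 118Q knockin mice (25% of members, against 6.7% of all genes) and 3 were higher (9.38%, against 12%). The median difference was -0.04 log2 units over the members and 0.06 over all genes tested. Below 0 were 18 of the 32 members, against 40% of all genes, and above 0 were 14, against 60%. By role, all 9 chaperones and isomerases were below 0, with a median of -0.30 and a range of -0.50 to -0.05. All 3 luminal cofactors were above 0 (median 0.16), as were 6 of the 8 sensors and transcription factors (median 0.12). The 12 genes of ER-associated degradation and the translocon had a median of -0.04. These values rest on the brightest probe sets. With the mean of each gene's probe sets, 8 of the 9 chaperones and isomerases were below 0 (median -0.21). Of the 9, 2 then had an unadjusted p below 0.05, against 5 with the brightest. The median of the 12 degradation and translocon genes was then 0.08. Of 31 other member probe sets above the filter, 18 had the sign of the gene's brightest. The members were chosen with earlier results of these data known, so these counts are descriptions. In whole tissue, fewer cells of a type and less RNA per cell cannot be told apart.

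**Figure D1:**
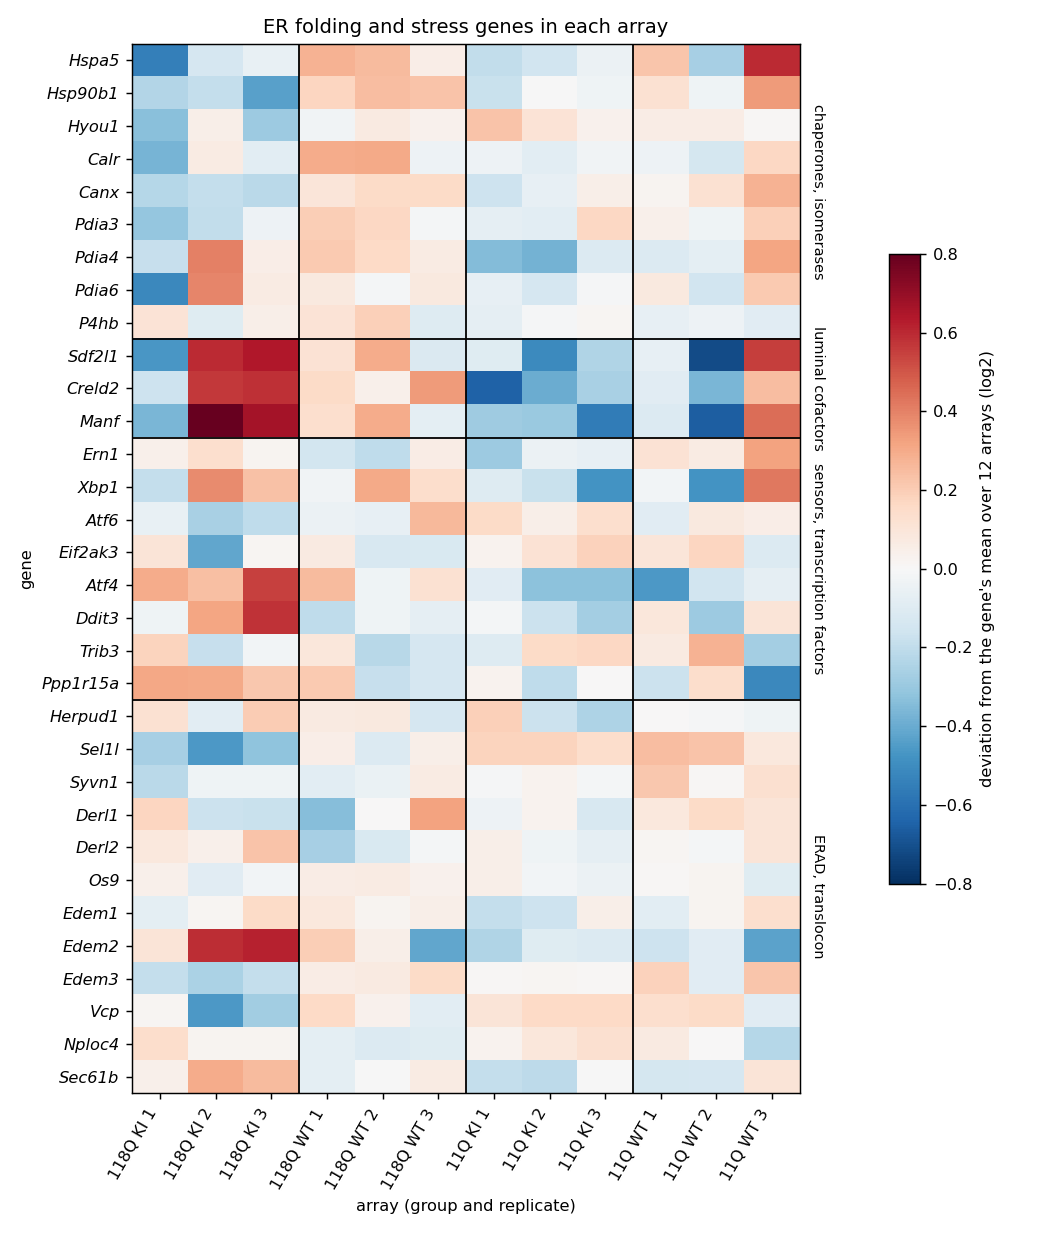
Deviation of each of the 32 genes (rows, grouped by role) from its own mean over 12 arrays, in log2 units by colour, with 1 column per array and lines between the groups (KI, knockin; WT, wild type littermates). The chaperone rows are mostly blue in the 3 arrays of 118Q knockin mice, and the luminal cofactors are red in replicates 2 and 3 of that group and blue in replicate 1.

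Hsp90b1 encodes GRP94, the HSP90 chaperone of the ER lumen. Its brightest probe set read 7.45, 7.49 and 7.25 log2 units in 118Q knockin mice, against 7.85, 7.93 and 7.91 in their wild type littermates. All 3 knockin arrays lay below all 3 littermate arrays, and the littermate arrays lay close together. The difference was -0.50 ± 0.12 log2 units (SE; adjusted p = 0.0693, limma), the smallest p among the members. A dimmer second probe set of the gene, fitted probe set by probe set, gave 0.03 ± 0.18, so the gene's probe sets differ in sign. Without replicate 1 of the 118Q knockin mice the brightest probe set was at -0.53 (adjusted p = 0.0397, limma). More of all genes passed in that fit too. Of the 12 fits that left out 1 array, it was the only 1 in which Hsp90b1 passed. The highest adjusted p among them was 0.269.

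Hspa5 encodes BiP, the HSP70 chaperone that also holds the stress sensors inactive. It read 7.58, 7.99 and 8.06 log2 units in 118Q knockin mice, against 8.40, 8.38 and 8.18 in their wild type littermates. The groups did not overlap, and replicate 1 of the knockin mice was the lowest of all 12 arrays. The difference was -0.44 ± 0.19 (adjusted p = 0.231, limma). Its other probe sets gave -0.35 ± 0.18 and -0.02 ± 0.15.

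Canx encodes calnexin, the membrane lectin that holds newly made glycoproteins until they fold. It read 8.25, 8.29 and 8.26 log2 units in 118Q knockin mice, against 8.58, 8.63 and 8.63 in their wild type littermates. The arrays of each group lay close together and the groups were well apart. The difference was -0.35 ± 0.10 (adjusted p = 0.107, limma). The other probe sets of Canx gave -0.33 ± 0.17 and -0.38 ± 0.15, so all 3 pointed the same way.

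Pdia3 encodes ERp57, the disulfide isomerase that works with calnexin and calreticulin. It read 7.05, 7.16 and 7.32 log2 units in 118Q knockin mice, against 7.56, 7.53 and 7.35 in their wild type littermates. The groups did not overlap, but knockin replicate 3 and littermate replicate 3 were close. The difference was -0.30 ± 0.12 (adjusted p = 0.196, limma). Calr, which encodes the soluble lectin calreticulin, differed by -0.32 ± 0.14 (adjusted p = 0.235) with overlapping groups, and its other probe sets gave -0.26 ± 0.14 and -0.31 ± 0.14.

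The remaining chaperones and isomerases differed by less. Hyou1, a nucleotide exchange factor of BiP, differed by -0.22 ± 0.11 (adjusted p = 0.316, limma). The isomerases Pdia4, Pdia6 and P4hb differed by -0.05 ± 0.16, -0.07 ± 0.18 and -0.05 ± 0.10, each with overlapping groups. Without replicate 1 of the 118Q knockin mice, 7 of the 9 genes were below 0, their median was -0.20 and 2 of 9 had an unadjusted p below 0.05, against 5 of 9 with that array. With the 18S ribosomal RNA signal as covariate all 9 were below 0, with a median of -0.42. The 18S signal was at most 9.23 in 118Q knockin arrays and at least 9.66 in arrays of their wild type littermates. That fit thus cannot tell the signal from the group.

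The luminal cofactors were the most variable members. Manf encodes a secreted factor that binds BiP and supports neurons. It read 6.78, 7.96 and 7.81 log2 units in 118Q knockin mice, against 7.28, 7.44 and 7.07 in their wild type littermates. Knockin replicate 1 lay below every littermate array and replicates 2 and 3 above every one, so the difference of 0.25 ± 0.30 (adjusted p = 0.687, limma) averages over arrays on both sides of the littermates. Sdf2l1, a partner of BiP and its DNAJ cofactors, read 4.23, 5.29 and 5.34 in 118Q knockin mice and 4.81, 4.99 and 4.57 in their wild type littermates, again with replicate 1 below and replicates 2 and 3 above every littermate array. Creld2, an ER protein with disulfide exchange activity, read 4.39, 5.12 and 5.14 in 118Q knockin mice and 4.71, 4.59 and 4.90 in their wild type littermates. In all 3 genes, knockin replicate 1 was below all 3 littermate arrays. Without knockin replicate 1 their median difference was 0.52, against 0.16 with it. That array was picked out because it was low in these genes, so leaving it out raises the difference by construction. With the 18S signal as covariate the 3 were below 0, with a median of -0.89. That fit cannot tell the signal from the group. Knockin replicate 1, low in these genes, also had the highest 18S signal of its group (9.23, against 8.63 and 8.56).

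The range over the 12 arrays was 1.47 log2 units in Manf, 1.36 in Sdf2l1, 1.23 in Creld2, 1.14 in Hspa5 and 0.16 in Os9, the member with the smallest range. In 11Q-line wild type mice, Manf read 7.04, 6.49 and 7.59, Sdf2l1 4.63, 3.98 and 5.25 and Hspa5 8.35, 7.86 and 8.72. In all 3 of these genes, replicate 3 was the highest and replicate 2 the lowest of that group. In each of the 3, the range within this wild type group was wider than the mean difference in the 118Q line.

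**Figure D2:**
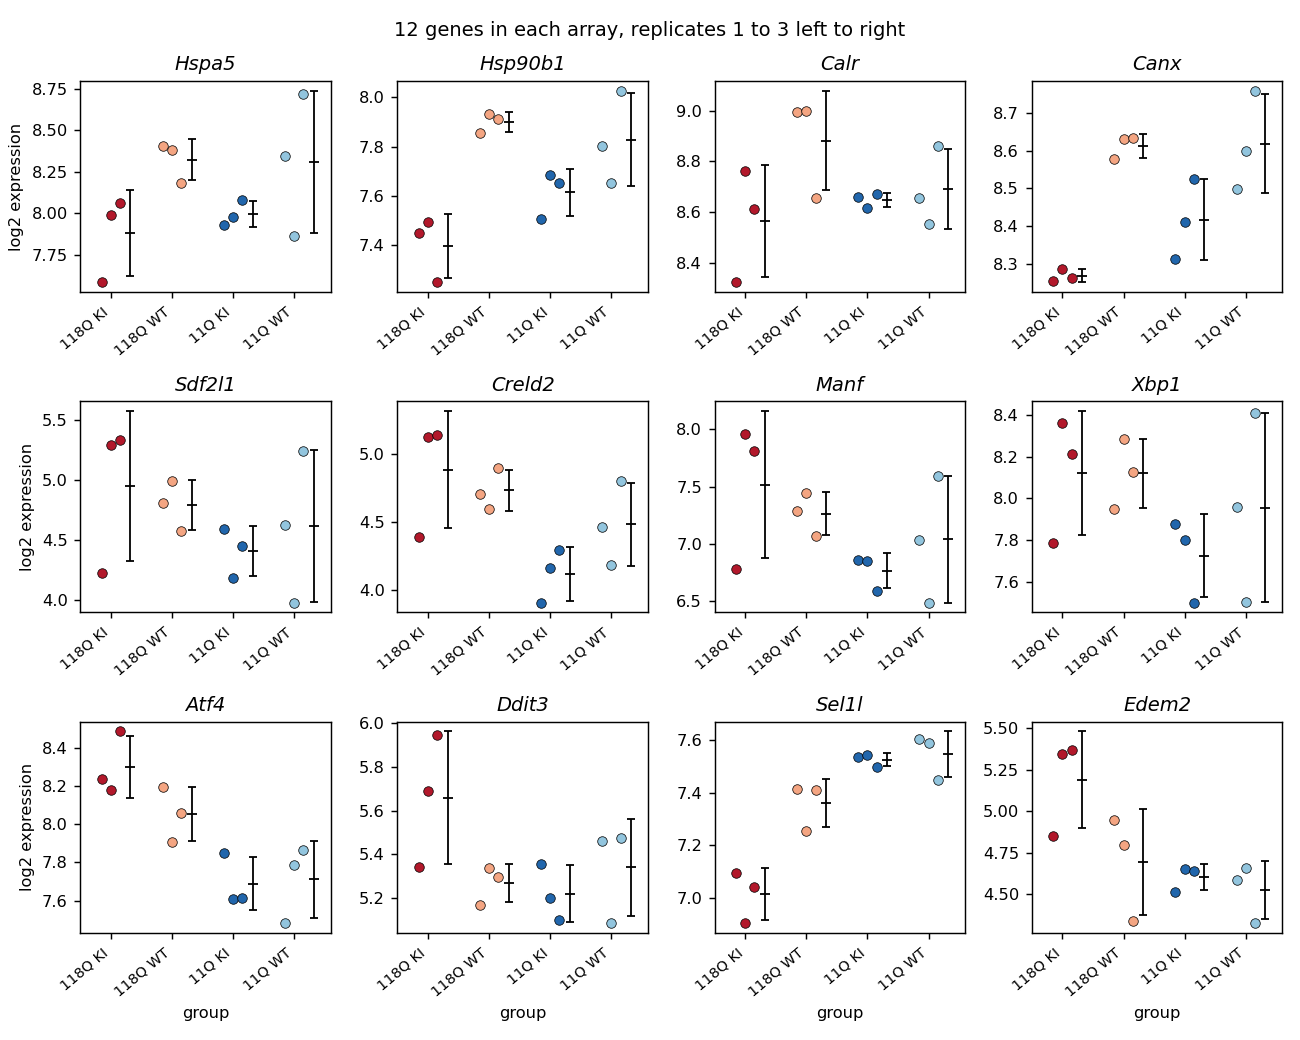
Log2 expression of 12 members (vertical axis, on its own scale for each gene) in each array of the 4 groups, with replicates 1 to 3 from left to right and the mean ± SD of 3 arrays beside them. Hsp90b1, Canx and Sel1l are lower in all 3 arrays of 118Q knockin mice than in any littermate array, and Manf, Sdf2l1 and Creld2 split the 118Q knockin mice into 1 low and 2 high arrays.

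Among the sensors and transcription factors, Ddit3 had the smallest p. It encodes CHOP, a transcription factor of prolonged stress. It read 5.34, 5.69 and 5.95 log2 units in 118Q knockin mice, against 5.17, 5.34 and 5.30 in their wild type littermates. The lowest knockin array lay just above the highest littermate array. The difference was 0.39 ± 0.16 (adjusted p = 0.206, limma), and a dim second probe set gave 0.77 ± 0.23 (unadjusted p = 0.00557). With the 18S signal as covariate, which cannot be told apart from the group, the difference was -0.11.

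Atf4 encodes the transcription factor whose translation increases when PERK acts. It read 8.24, 8.18 and 8.49 log2 units in 118Q knockin mice, against 8.19, 7.91 and 8.06 in their wild type littermates, with a small overlap. The difference was 0.25 ± 0.13 (adjusted p = 0.341, limma), while a second probe set gave -0.67 ± 0.27, the opposite sign. Ppp1r15a, the phosphatase subunit that restarts translation, read 5.40, 5.39 and 5.30 in 118Q knockin mice and 5.30, 4.90 and 4.95 in their wild type littermates. It differed by 0.31 ± 0.16 (adjusted p = 0.309) with no overlap, by a narrow margin.

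Xbp1 encodes the factor whose RNA is spliced by IRE1, and these gene-level values do not tell the spliced from the unspliced form. It read 7.79, 8.36 and 8.21 log2 units in 118Q knockin mice, against 7.95, 8.28 and 8.12 in their wild type littermates. The groups overlapped fully and the difference was 0.00 ± 0.21. Ern1, which encodes IRE1, differed by 0.16 ± 0.11, Atf6 by -0.22 ± 0.11, Eif2ak3, which encodes PERK, by -0.04 ± 0.14 and Trib3, a pseudokinase induced by CHOP, by 0.08 ± 0.15. None of these had an unadjusted p below 0.05.

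The members of ER-associated degradation went in both directions. Sel1l encodes the adaptor of the HRD1 ubiquitin ligase. It read 7.10, 6.90 and 7.04 log2 units in 118Q knockin mice, against 7.42, 7.25 and 7.41 in their wild type littermates. The groups did not overlap, and the difference was -0.35 ± 0.10 (adjusted p = 0.104, limma). Its dimmer probe sets gave -0.11, -0.15, 0.21 and -0.13, with standard errors of 0.14 to 0.22.

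Edem3 encodes a mannosidase that marks glycoproteins for degradation. It read 6.59, 6.52 and 6.58 log2 units in 118Q knockin mice, against 6.84, 6.85 and 6.93 in their wild type littermates. The groups were apart, the difference was -0.31 ± 0.10 (adjusted p = 0.145, limma), and its other probe set gave -0.38 ± 0.17. Edem2, of the same family, read 4.85, 5.35 and 5.37 in 118Q knockin mice, against 4.95, 4.80 and 4.34 in their wild type littermates. Its groups overlapped through knockin replicate 1, and the difference was 0.49 ± 0.17 (adjusted p = 0.165), in the direction opposite to Edem3. Without knockin replicate 1, its lowest knockin array, the difference was 0.66 (adjusted p = 0.0453, limma). Leaving out the lowest knockin array raises the difference by construction. Of the 12 fits that left out 1 array, Edem2 passed in that 1 only, and the highest adjusted p was 0.437. With the 18S signal as covariate, which cannot be told apart from the group, the difference of Edem2 was -0.27. Edem1 differed by -0.02 ± 0.11.

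Derl2 encodes a derlin, a membrane protein of the degradation channel. It read 5.06, 5.02 and 5.20 log2 units in 118Q knockin mice, against 4.71, 4.85 and 4.96 in their wild type littermates. The groups did not overlap and the difference was 0.25 ± 0.10 (adjusted p = 0.203, limma). Vcp, the ATPase that pulls substrates into the cytosol, differed by -0.28 ± 0.13 (adjusted p = 0.266). Its cofactor Nploc4 differed by 0.16 ± 0.10 and the translocon subunit Sec61b by 0.20 ± 0.11. Syvn1, the ubiquitin ligase HRD1, its partner Herpud1, the lectin gene Os9 and the second derlin gene Derl1 lay between -0.08 and 0.08 and overlapped between groups.

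Counted over the 32 members, 6 were lower in every 118Q knockin array than in every littermate array (18.8%, against 7.25% of all genes), namely Hspa5, Hsp90b1, Canx, Pdia3, Sel1l and Edem3. Without overlap, 4 were higher (12.5%, against 15.1% of all genes), namely Ddit3, Ppp1r15a, Derl2 and Nploc4. The 7 members with ERSE had a median difference of -0.32, and 6 of them were below 0, Creld2 being the exception. The 21 members with a window and no ERSE had a median of 0.08. Hspa5, Hsp90b1, Calr, Canx and Pdia6 are both members with ERSE and chaperones or isomerases, so element and role cannot be told apart. Pdia3, without ERSE, was at -0.30, while Pdia6 and Syvn1, with it, were at -0.07. The promoters were shown because of these differences, so the split is a description. In the 11Q line all 7 members with ERSE were below 0, with a median of -0.20, against -0.05 in the 21 without it. The 8 other tested genes with ERSE, among them Dnajc3, Derl3 and Ero1b, had a median of 0.01, with 4 below 0.

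**Figure D3:**
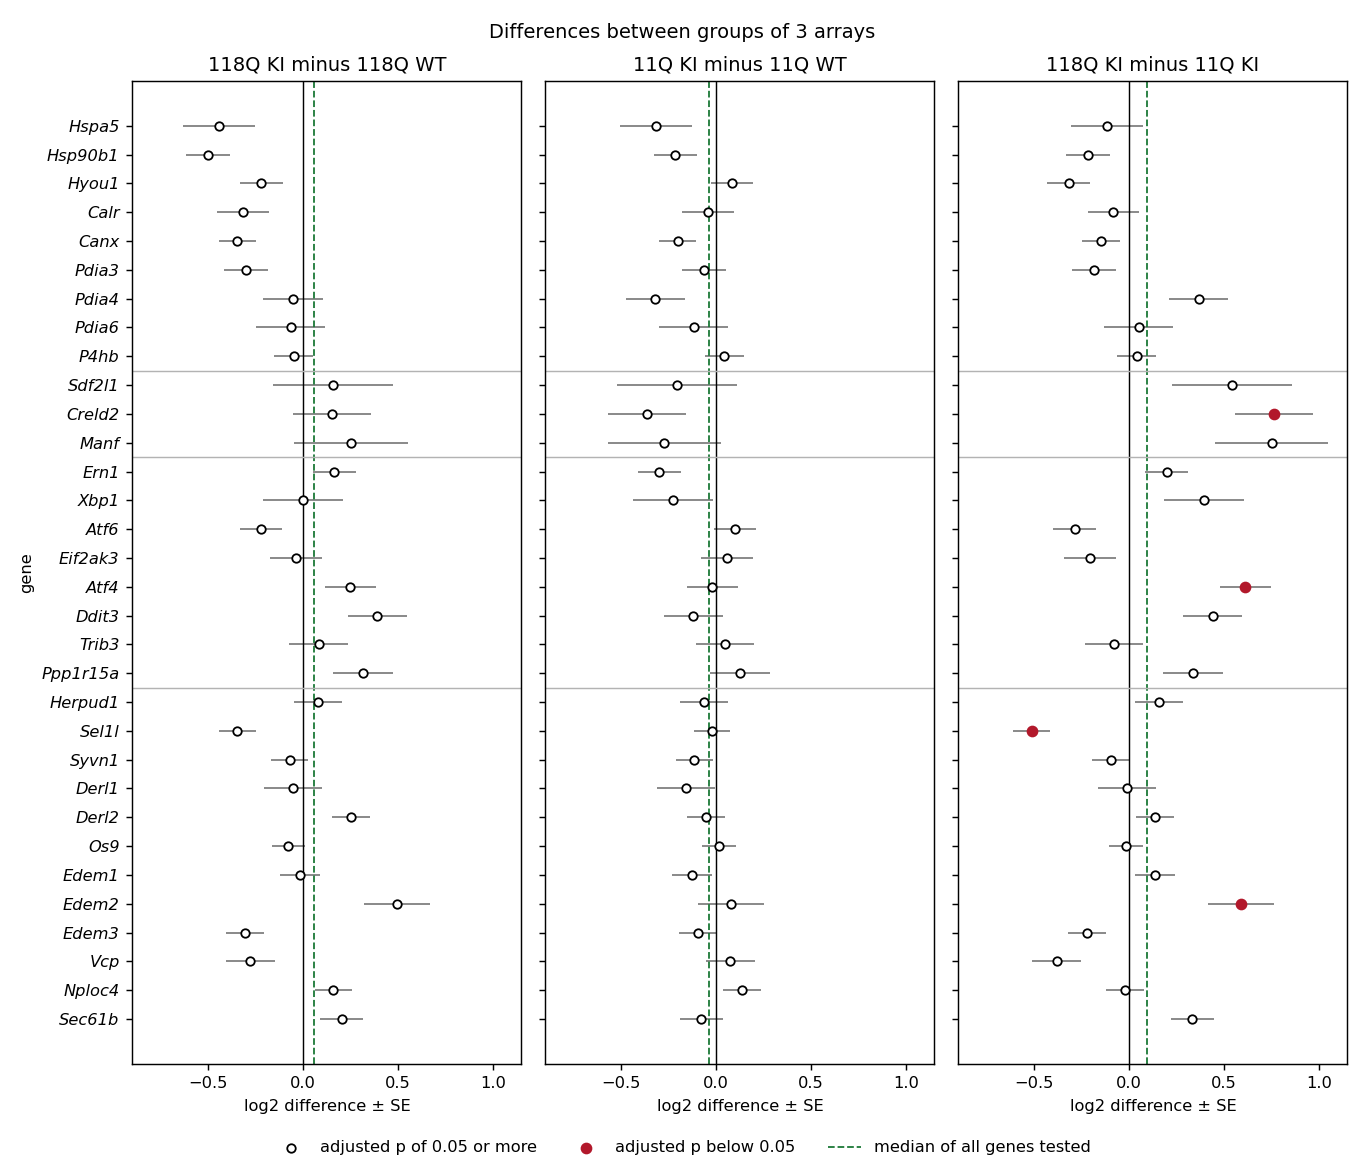
Log2 difference ± SE of each member (rows, by role) for 118Q knockin minus 118Q-line wild type mice, 11Q knockin minus 11Q-line wild type mice and 118Q knockin minus 11Q knockin mice, with the dashed line at the median of all genes tested. Filled points are the 4 members with an adjusted p below 0.05, all in the third panel, where Creld2 is at 0.76 and Sel1l at -0.51.

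In 11Q knockin mice against their wild type littermates, no member and no gene passed an adjusted p below 0.05 (limma; 0% of genes). At an unadjusted p below 0.05 there was 1 member, or 3.12%, against 4.23% of all genes. Below 0 were 22 members, or 68.8%, against 59.3% of all genes. The 1 member was Ern1, which read 4.04, 4.29 and 4.27 log2 units in 11Q knockin mice, against 4.44, 4.40 and 4.65 in their wild type littermates. The groups did not overlap and the difference was -0.30 ± 0.11 (adjusted p = 0.939), while a dim second probe set gave 0.13 ± 0.10. Without overlap, 2 members were lower, Ern1 and Derl1 (6.25%, against 7.17% of all genes), and 0 were higher (against 3.24%). The median over the members was -0.07, and over all genes -0.04.

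Of the chaperones and isomerases, Canx, Hsp90b1 and Pdia4 had the smallest p in the 11Q line. Canx read 8.31, 8.41 and 8.53 log2 units in 11Q knockin mice and 8.50, 8.60 and 8.76 in their wild type littermates, with overlap, and differed by -0.20 ± 0.10. Hsp90b1 read 7.51, 7.68 and 7.65 in 11Q knockin mice and 7.80, 7.65 and 8.03 in their wild type littermates, and differed by -0.21 ± 0.12. Pdia4 read 4.71, 4.68 and 4.94 in 11Q knockin mice and 4.94, 4.98 and 5.37 in their wild type littermates, and differed by -0.32 ± 0.16. The adjusted p was 0.939 for each of the 3. Hspa5 differed by -0.32 ± 0.19, and 7 of the 9 chaperones and isomerases were below 0 (median -0.12). The 3 luminal cofactors were below 0 as well (median -0.27), between -0.36 and -0.21.

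The 118Q and 11Q knockin effects were set against each other by the difference of differences. No member passed an adjusted p below 0.05, and no gene did (limma; 0%). At an unadjusted p below 0.05 there were 4 members, or 12.5%, against 11% of all genes, a share near that of all genes. Ern1 had the smallest p: its effect was 0.46 ± 0.16 higher in the 118Q line (adjusted p = 0.351). The effect was also higher in the 118Q line for Ddit3 by 0.51 ± 0.22 (adjusted p = 0.429) and for Derl2 by 0.31 ± 0.14 (adjusted p = 0.453), and Sel1l had -0.33 ± 0.14 (adjusted p = 0.427). For the chaperones the difference of effects was -0.29 ± 0.16 in Hsp90b1, -0.13 ± 0.27 in Hspa5 and -0.14 ± 0.14 in Canx. These errors leave the size of the effect in the 118Q line unresolved from that in the 11Q line.

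The direct comparison of 118Q with 11Q knockin mice called 4 members, or 12.5%, at an adjusted p below 0.05, against 13.7% of all genes (limma). The share of members called was near that of all genes. Creld2, Atf4 and Edem2 were higher in 118Q knockin mice (9.38% of members, against 10.1% of all genes) and Sel1l was lower (3.12%, against 3.6%). At an unadjusted p below 0.05 there were 12 members, or 37.5%, against 30.9% of all genes, with 7 higher (21.9%, against 22.6%) and 5 lower (15.6%, against 8.32%). Without overlap, 6 were higher (18.8%, against 26.5%) and 7 lower (21.9%, against 11.6%). The allele and the line cannot be told apart in this comparison, so the wild type littermates of the lines are given beside each of the 4 members called.

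Sel1l was lower by 0.51 on the log2 scale in 118Q than in 11Q knockin mice. It read 7.10, 6.90 and 7.04 in 118Q knockin mice, against 7.54, 7.54 and 7.50 in 11Q knockin mice. The 11Q knockin arrays lay close together and above every 118Q knockin array. The difference was -0.51 ± 0.10 (1.43-fold; adjusted p = 0.00902, limma). It passed in all 12 fits that left out 1 array, but not with the mean of the gene's probe sets (-0.21, adjusted p = 0.149). Between the wild type mice Sel1l differed by -0.19 ± 0.10 in the same direction, at 7.42, 7.25 and 7.41 in 118Q-line mice and 7.61, 7.59 and 7.45 in 11Q-line mice. The second brightest probe set gave -0.59 (adjusted p = 0.0792).

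Atf4 was higher by 0.61 ± 0.13 log2 units in 118Q than in 11Q knockin mice (1.53-fold, adjusted p = 0.0148, limma). It read 8.24, 8.18 and 8.49 in 118Q knockin mice, against 7.85, 7.61 and 7.61 in 11Q knockin mice, with no overlap. It did not pass without 118Q knockin replicate 3 (adjusted p = 0.0721) or without 11Q knockin replicate 2 or 3 (0.0544 and 0.056), and passed in the other 9 such fits. The second probe set gave -0.41 (adjusted p = 0.326). Between the wild type mice Atf4 read 8.19, 7.91 and 8.06 in 118Q-line mice, against 7.48, 7.79 and 7.86 in 11Q-line mice. The groups did not overlap, and the difference was 0.34 ± 0.13 (adjusted p = 1; unadjusted p = 0.0241).

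Creld2 rose by 0.76 ± 0.21 log2 units in 118Q knockin mice (1.7-fold; adjusted p = 0.0314, limma). It read 4.39, 5.12 and 5.14 in 118Q knockin mice, against 3.91, 4.16 and 4.30 in 11Q knockin mice. The lowest 118Q knockin array lay just above the highest 11Q knockin array. It passed in 7 of 12 fits that left out 1 array, and missed without 118Q knockin replicate 2 or 3 or any 1 of the 11Q knockin arrays (adjusted p = 0.0576 to 0.129). The wild type mice overlapped, at 4.71, 4.59 and 4.90 in the 118Q line and 4.46, 4.19 and 4.80 in the 11Q line. Manf had a difference of the same size, 0.75 ± 0.30 (adjusted p = 0.109), and Sdf2l1 one of 0.54 ± 0.32 (adjusted p = 0.265), both with overlap.

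Edem2 was higher by 0.59 ± 0.17 log2 units in 118Q than in 11Q knockin mice (1.5-fold, adjusted p = 0.0433, limma). It read 4.85, 5.35 and 5.37 in 118Q knockin mice, against 4.51, 4.65 and 4.64 in 11Q knockin mice, with no overlap. It passed in 4 of 12 fits that left out 1 array: those without 118Q knockin replicate 1, 118Q-line wild type replicate 1 or 3, or 11Q-line wild type replicate 3. In the other 8 the adjusted p was 0.0526 to 0.157. The wild type mice overlapped, at 4.95, 4.80 and 4.34 in the 118Q line and 4.59, 4.66 and 4.33 in the 11Q line. With the 18S signal as covariate none of the 4 genes passed, and no gene of the whole array did. The 18S signal of 118Q knockin arrays overlapped with that of no other group. The fit therefore cannot tell the signal from the group, and its loss of calls shows no cause. In that fit Atf4 was at 0.62, Sel1l at -0.36 and Creld2 at 0.40, in the same direction as without it, and Edem2 was at -0.40, in the opposite one.

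Between the wild type littermates of the lines no member and no gene passed an adjusted p below 0.05 (limma; 0%). At an unadjusted p below 0.05 there were 2 members, or 6.25%, against 2.98% of all genes. They were Atf4, given above, and Ern1, which read 4.18, 4.13 and 4.39 log2 units in 118Q-line wild type mice, against 4.44, 4.40 and 4.65 in 11Q-line wild type mice. Ern1 differed by -0.27 ± 0.11, and the groups did not overlap. Its levels in 118Q knockin mice, 4.37, 4.47 and 4.35, overlapped both. Without overlap, 2 members were higher, Atf4 and Os9 (6.25%, against 4% of all genes), and 3 were lower, Ern1, Sel1l and Derl2 (9.38%, against 2.44%).

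Genes of the same pathways outside the 32 were counted from 6 lists, and 1 of them passed the test in 118Q knockin mice against their littermates. Fbxo2, which encodes a ubiquitin ligase subunit that binds high-mannose sugars, rose by 0.64 ± 0.11 log2 units (adjusted p = 0.0465, limma). It was 1 of 16 measured genes of N-glycosylation and glycan quality control, whose median was 0.04. The oligosaccharyltransferase subunits Stt3b and Rpn1 were at -0.23 ± 0.09 and -0.26 ± 0.11 (adjusted p = 0.215 and 0.225). Of 16 measured genes of the translocon and signal peptidase, none passed. There Ssr4, a subunit of the translocon-associated complex, was at 0.37 ± 0.09 (adjusted p = 0.0703), and Sec61a1, the pore of the channel, at -0.39 ± 0.13 (adjusted p = 0.144).

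Of 19 measured co-chaperones and genes of oxidative folding none passed in the 118Q line (median 0.08), with the prolyl isomerase gene Fkbp11 at -0.26 ± 0.12. Of 15 measured genes of ER-associated degradation none passed (median 0.09), and 10 were above 0, against 60% of all genes. Of the 15, 3 had an unadjusted p below 0.05, all higher, where 12% of all genes were higher at that p. They were the ubiquitin ligases Rnf5 and Stub1 at 0.34 ± 0.10 and 0.23 ± 0.10, and Aup1 at 0.32 ± 0.13. Of 28 measured genes of the integrated stress response and ATF4 targets none passed (median 0.04). The serine synthesis gene Phgdh was at 0.27 ± 0.12, the mitochondrial Shmt2 at 0.31 ± 0.14 and the lipoprotein receptor gene Vldlr at -0.45 ± 0.10 (adjusted p = 0.0693). Of 11 transcription factors and proteases of the response none passed (median 0.13), with Nfyb, a subunit of the factor that binds the CCAAT part of ERSE, at 0.29 ± 0.12. In the 11Q line no gene of any of the 6 lists passed.

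Between 118Q and 11Q knockin mice, 2 of 16 translocon genes, 2 of 16 glycosylation genes, 0 of 19 co-chaperones, 3 of 15 degradation genes, 3 of 28 stress response genes and 0 of 11 transcription factors passed, where 13.7% of all genes did. Those higher in 118Q than in 11Q knockin mice were Ssr4, Fbxo2, the lectin gene Erlec1, Rnf5, Aup1, Phgdh and the stress-induced Nupr1. Phgdh was higher by 0.69 ± 0.12 (adjusted p = 0.00735, limma) and Rnf5 by 0.54 ± 0.10 (adjusted p = 0.00886). Those lower were Sec61a1, the ubiquitin shuttle gene Rad23b and Vldlr, and Vldlr was at -0.53 ± 0.10 (adjusted p = 0.00979). Nupr1 differed by 0.66 ± 0.19 between the knockin mice and by 0.67 ± 0.19 between the wild type mice of the lines (adjusted p = 1). Of the 28 stress response genes, 23 were higher in 118Q-line than in 11Q-line wild type mice (median 0.11). At an unadjusted p below 0.05 there were 4, all higher, where 2.98% of all genes passed in either direction. Allele and line cannot be told apart for these lists either.

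Several measures of the arrays moved with the groups. The 18S control signal was 8.80 ± 0.37 log2 units in 118Q knockin mice and 9.92 ± 0.35 in their wild type littermates, and 10.24 ± 0.13 in 11Q knockin mice and 10.44 ± 0.17 in theirs (SD, n = 3 each). The phe spike-in control read 4.06 ± 0.18 in 118Q knockin and 3.46 ± 0.28 in 118Q-line wild type mice, and 1.97 ± 0.51 in 11Q knockin and 2.64 ± 0.58 in 11Q-line wild type mice. The 3′ minus 5′ signal of the Gapdh control, a sign of RNA quality, was -0.14 ± 0.02 in 118Q knockin and -0.08 ± 0.04 in 118Q-line wild type mice, and 0.08 ± 0.04 in 11Q knockin and 0.03 ± 0.10 in 11Q-line wild type mice, and the 118Q knockin arrays overlapped with no other group. That of Actb was 1.09 ± 0.05 in 118Q knockin and 1.21 ± 0.09 in 118Q-line wild type mice, and 1.31 ± 0.11 in 11Q knockin and 1.31 ± 0.11 in 11Q-line wild type mice. The part of these measures in the members' values was not tested, as the fit with the 18S signal cannot tell that signal from the group. Arrays correlated at 0.980 to 0.995 over probe sets, and their medians lay between 2.21 and 2.38. Cacna1a, the targeted gene, read 5.61 ± 0.09 in 118Q knockin and 5.94 ± 0.35 in 118Q-line wild type mice, and 6.29 ± 0.12 in 11Q knockin and 6.36 ± 0.12 in 11Q-line wild type mice. It differed by -0.34 ± 0.15 in the 118Q line (adjusted p = 0.264, limma), and its level does not check the tract length. The labels name no batch.

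Gene length moved with the 118Q knockin group as well. Across 12645 genes of 1 array, which share that array's RNA, the Spearman correlation between deviation from the gene mean and gene span was -0.24, -0.33 and -0.30 in 118Q knockin mice, against -0.01, -0.04 and 0.16 in their wild type littermates. It was 0.11, 0.20 and 0.16 in 11Q knockin mice and 0.22, 0.14 and 0.23 in their wild type littermates. Longer genes thus read lower in 118Q knockin arrays. The 8 members lower in 118Q knockin mice than in littermates at an unadjusted p below 0.05 (limma) span 4440 to 66985 bp. They are Hspa5 (4440 bp), Calr (4844 bp), Hsp90b1 (14604 bp), Vcp (20544 bp), Pdia3 (24786 bp), Canx (31717 bp), Sel1l (43115 bp) and Edem3 (66985 bp). The luminal cofactors span 2246 to 7036 bp and Atf4 2362 bp. The part of gene length in the members' values was not tested.

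Markers of other cell types moved in the 118Q line too. Of 8 measured Purkinje cell markers 7 were below 0 in 118Q knockin mice against their wild type littermates (median -0.70), and Slc1a6, their glutamate transporter gene, fell (-1.13 ± 0.20, adjusted p = 0.0465, limma). The summed marker level was 12.45 to 12.90 log2 units in 118Q knockin mice and 13.02 to 13.14 in their wild type littermates. All 9 measured microglial markers were above 0 (median 0.63; summed level 8.52 to 8.97 in 118Q knockin and 8.18 to 8.45 in 118Q-line wild type mice). All 9 measured endothelial and mural markers were below 0 (median -0.62; summed level 8.30 to 8.52 in 118Q knockin and 8.67 to 8.98 in 118Q-line wild type mice). Of 8 plasma and B cell markers, cells rich in ER, 2 were above the filter, Sdc1 at 0.41 ± 0.19 and Mzb1 at 0.08 ± 0.10. Their summed level was 4.24 to 4.46 in 118Q knockin and 3.88 to 4.14 in 118Q-line wild type mice. The highest sum of all 12 arrays, 4.54, was in 11Q knockin replicate 3. The median was -0.01 over 8 of 9 granule cell markers, 0.03 over 9 of 9 of Bergmann glia and astrocytes, 0.13 over 6 of 7 of oligodendrocytes and -0.28 over 8 of 8 of meninges.

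The order of arrays differed between these markers and the chaperones. The median deviation of Purkinje markers was -0.07, -0.85 and -0.59 log2 units in replicates 1 to 3 of 118Q knockin mice, and that of the 9 chaperones and isomerases was -0.31, -0.10 and -0.06. Replicate 1 had the highest Purkinje marker level and the lowest chaperone level of the 118Q knockin arrays. It also had the highest 18S signal of its group (9.23). Whether the levels of markers and chaperones are related was not tested. In 118Q-line wild type mice the Purkinje markers were at 0.12, 0.19 and 0.31 and the chaperones at 0.17, 0.16 and 0.05. The microglial markers were at 0.87, 0.39 and 0.58 in 118Q knockin mice. Ttr, a marker of choroid plexus, read 11.79, 11.39 and 8.66 in 118Q knockin mice, against 11.89, 6.25 and 11.82 in their wild type littermates, and 7.68, 5.26 and 11.79 in 11Q knockin mice, against 11.93, 11.88 and 11.89 in theirs. With Ttr as covariate the 9 chaperones and isomerases were all below 0, with a median of -0.30. That fit concerns choroid plexus alone and cannot address Purkinje, microglial or endothelial cells. The part of cell makeup in the members' values was not tested.

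**Figure D4:**
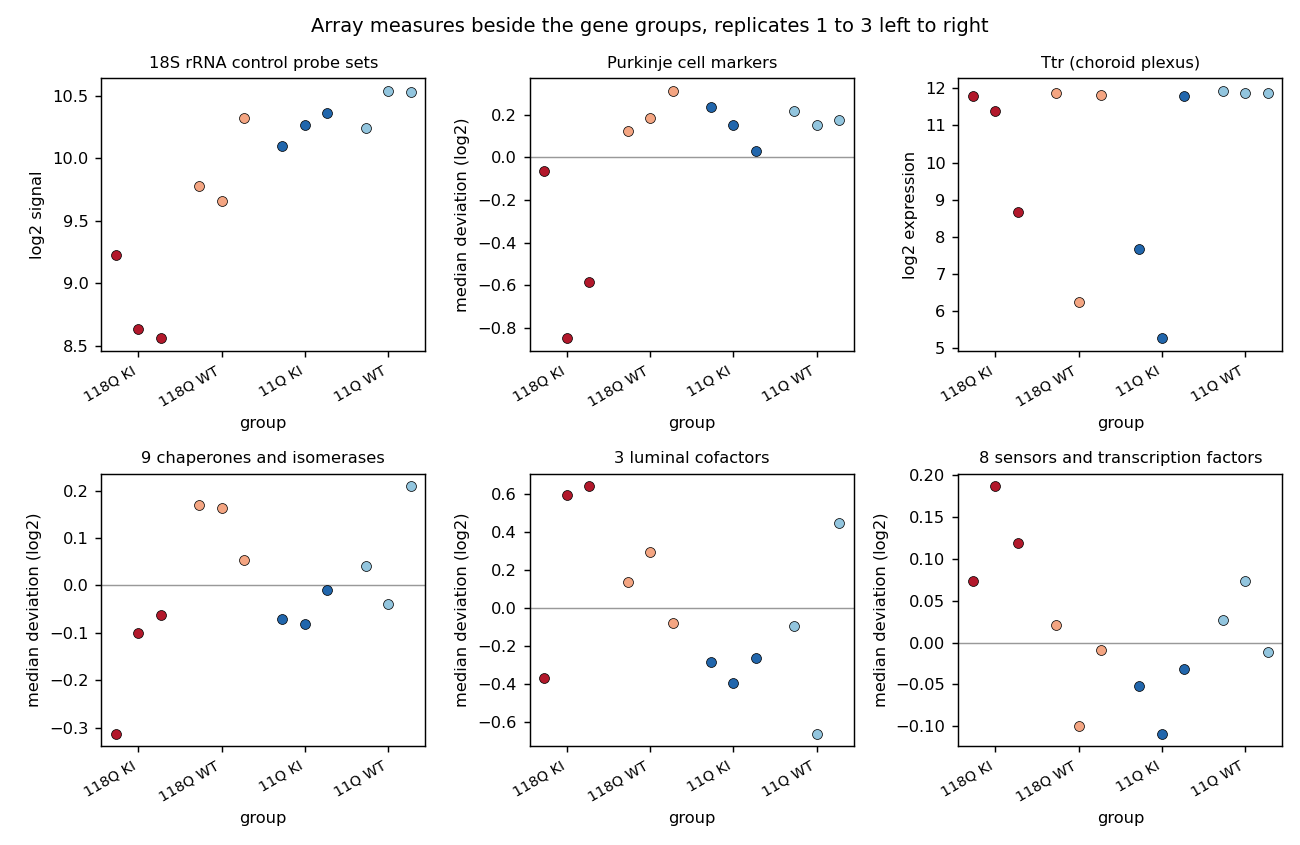
Upper row: the 18S control signal, the median deviation of Purkinje cell markers and the level of Ttr in each array (log2 units), by group with replicates 1 to 3 from left to right. Lower row: the median deviation (log2 units) of chaperones and isomerases, of luminal cofactors and of sensors and transcription factors in the same arrays; 118Q knockin replicate 1 has the highest Purkinje marker level of its group and the lowest chaperone level, -0.31.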

How the data were processed

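Gene expression was measured on 12 arrays, 1 per mouse, and p-values measure the spread between these mice. The values are log2 expression per probe set as deposited by the authors, made with RMA per the submitters' processing notes, in a version not given in the sources used here. No further normalization was applied. A filter took out the dimmest 40% of 45101 probe sets by mean over 12 arrays (limit 1.58 log2 units) and kept 27060, and the brightest probe set was kept for each of 12671 gene symbols from the array annotation. The 32 members had 74 probe sets, and 21 members had another one above the filter. With limma 3.58.1 (R 4.3.3), 1 mean per group was fitted to all 12 arrays (8 residual and 4.61 prior degrees of freedom), and p-values were adjusted by Benjamini-Hochberg over all genes. Errors of differences are standard errors and errors of means are standard deviations of 3 arrays; the number of arrays limits the precision. The fit was tested on simulated data. The members and lists were chosen with earlier results of these data known. Members were described array by array if called in any comparison, if among the smallest unadjusted p in a comparison, or if defining genes (Hspa5, Xbp1, Atf4, Ddit3). Manf, Sdf2l1 and Ppp1r15a were also given so, chosen after their values were seen. Up to 3 genes of each pathway list were named by smallest p in the 118Q line; those called between the knockin groups were also named, chosen after their values were seen. Alternatives were other filters, the mean or the second brightest of a gene's probe sets, centring, quantile normalization, an intensity trend, array weights, only the groups compared, the 18S signal or Ttr as covariate, a replicate block, an adjusted p below 0.1, and leaving out each array or wild type replicate 3 of both lines. Promoter sequences and gene spans are RefSeq's (GRCm38.p6).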

Additional observations from a re-analysis of the deposited data

How the results depend on the processing

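In the 11Q effect, the difference of effects and wild type against wild type, no member was called under any alternative run. In the 118Q effect no member was called; Hsp90b1 alone passed (1 member) at an adjusted p below 0.1, with the lowest 60% of probe sets removed, with arrays centred and with an intensity trend, and 8 members passed with array weights (3 higher, 5 lower; 1529 of all genes). Leaving out 1 array gave 0 to 2 calls, with Hsp90b1 and Edem2 called without 118Q knockin replicate 1 (707 of all genes). Between the knockin groups 4 members (3 higher, 1 lower) and 1733 of all genes were called. The members called, and in parentheses all genes called, were 8 (2892) at an adjusted p below 0.1, 18 (4738) with array weights, 2 (1334) with Ttr, 0 (0) with the 18S signal, 6 (2491) without wild type replicate 3 of both lines, and 1 to 10 (319 to 2274) when leaving out 1 array (1 without 118Q knockin replicate 3 or 11Q knockin replicate 2 or 3, 2 without 11Q knockin replicate 1, 10 without 118Q knockin replicate 1). The split was 1 higher and 4 lower with centred arrays, and 1 higher and 3 lower with quantile normalization. The members' median in the 118Q effect (-0.04) was 0.047 with the mean of probe sets, -0.10 with centred arrays, 0.024 with array weights, -0.15 with the 18S signal and -0.054 to 0.0145 when leaving out 1 array. In the difference of effects (0.05) it was -0.041 with centred arrays, -0.034 with quantile normalization, 0.11 with array weights and -0.056 with the 18S signal. Between the knockin groups (0.01) it was 0.10 with the mean of probe sets, -0.078 with centred arrays and -0.052 with the 18S signal. Single members changed sign as follows. With the second brightest probe set, Hsp90b1 (118Q effect) was at 0.032, Ern1 at 0.13 (11Q effect), -0.046 (difference of effects) and 0.13 (wild types), and Atf4 at -0.67 (118Q effect) and -0.41 (knockin groups). With the mean of probe sets, Atf4 was at -0.21 (118Q effect). With the 18S signal, Edem2 was at -0.27 (118Q effect) and -0.40 (knockin groups), Ddit3 at -0.11 and Xbp1 at -0.50 (both 118Q effect). Xbp1 (118Q effect) was at -0.058 with centred arrays and -0.12 to 0.17 when leaving out 1 array. The cause was not tested in any of these. In deviations from group means, same-numbered arrays correlated at -0.17 to 0.19 within a line and at -0.26 to 0.45 across lines. The highest value was that of wild type replicate 3 of both lines. Arrays with different numbers were not compared, so whether the replicate numbers pair the arrays was not tested. With the replicate block 0 members were called in the 118Q effect and 5 between the knockin groups, where the median stayed at 0.01.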
